A study of Mus musculus with 16 samples.

Results

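The target genes of EWSR1::ATF1 in mouse clear cell sarcoma (CCS) were read from the V5 peak list, which holds 10665 of the 58592 peaks in the 3 lists analysed. Each V5 peak was given to the protein-coding gene whose transcription start site (TSS) was closest, measured from the edge of the peak, so that a peak lying over a TSS has a distance of 0. All 10665 peaks received a gene, and 5098 of 21938 coding genes, or 23.2% (95% Wilson interval 22.7 to 23.8), received at least 1 peak and are called target genes. Nearest-TSS assignment is a naming convention and does not measure regulation. The series holds 16 samples, all labelled as tumours of the EWSR1::ATF1 genotype, with 4 for V5, 4 for RNAPOL2, 4 for H3K27ac and 4 for input chromatin. The mice carried the human fusion with a V5 tag in the Rosa26 locus behind a removable stop cassette, and tumours were started by TATCre protein injected into the limb at 4 weeks of age, so the Rosa26 promoter and not the Ewsr1 promoter drove the fusion. No tumour lacked the fusion, and no sample had the tag without it. Each antibody is represented by 1 list called against input, and no values per tumour were used, so all shares below compare lists or genes and not animals, and no test between groups was possible. The study uses a set of V5 sites of the size of this list and also a larger set, and how the larger set relates to the list is not known, so counts of genes are those of the 10665 listed peaks. Counts of target genes fall with the number of peaks, to 3022 genes with the upper 50% of peaks by score. The lists hold a score and no read counts, so the depth behind a peak is unknown.

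EWSR1::ATF1 joins the N-terminal part of the RNA-binding protein EWSR1 to the DNA-binding bZIP domain of ATF1. ATF1 belongs with CREB1 and CREM to a family of factors that bind the cAMP response element, whose palindromic form is TGACGTCA, and that turn on immediate early genes when cAMP-dependent protein kinase is active. In human CCS the fusion is the defining genetic lesion, and the tumours often express melanocyte genes. A transcription factor can act from the promoter or from enhancers far from the gene.

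The sequences printed here come from the 4 genes with the most distal peaks among the genes that also had a promoter peak, passing over Celf4. A promoter peak lay within 3 kb of the assigned TSS, and every other peak is called distal. For each gene the central 100 bp of its strongest promoter peak and of its strongest distal peak are shown, to let both kinds of site be seen side by side at the same target. Letters are the plus strand of mm10 (GRCm38), and capitals mark matches to TGACGTCA, to the looser form TGANNTCA, of which TGACGTCA is 1 case, or to the AP-1 motif TGAGTCA, each searched on both strands.
Pde4d promoter, chr13:109684721-109684820: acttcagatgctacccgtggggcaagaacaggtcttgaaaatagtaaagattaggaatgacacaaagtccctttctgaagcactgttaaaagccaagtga
Pde4d distal, chr13:109761126-109761225: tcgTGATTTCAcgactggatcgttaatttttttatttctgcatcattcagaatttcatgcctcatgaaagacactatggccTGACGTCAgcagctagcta
Reep3 promoter, chr10:67033521-67033620: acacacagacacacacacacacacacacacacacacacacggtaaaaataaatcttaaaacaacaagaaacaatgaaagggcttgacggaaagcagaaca
Reep3 distal, chr10:66839166-66839265: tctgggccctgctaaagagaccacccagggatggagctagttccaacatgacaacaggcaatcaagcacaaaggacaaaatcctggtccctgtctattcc
Tshz2 promoter, chr2:169635451-169635550: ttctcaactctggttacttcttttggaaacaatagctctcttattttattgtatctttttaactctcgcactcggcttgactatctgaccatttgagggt
Tshz2 distal, chr2:169901286-169901385: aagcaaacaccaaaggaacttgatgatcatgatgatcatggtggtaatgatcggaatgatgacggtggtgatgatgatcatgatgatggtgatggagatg
Creb5 promoter, chr6:53287146-53287245: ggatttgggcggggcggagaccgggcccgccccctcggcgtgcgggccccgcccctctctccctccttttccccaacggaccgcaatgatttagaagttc
Creb5 distal, chr6:53562971-53563070: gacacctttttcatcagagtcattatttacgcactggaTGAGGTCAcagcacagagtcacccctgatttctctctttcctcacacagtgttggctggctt
The Pde4d distal window held 1 palindromic cAMP response element, and the Creb5 distal window held 1 looser match. The Tshz2 distal window held neither motif but contained TGA or TCA 16 times, where the median central window of a V5 peak had 4 and the 99th percentile was 11. Of all 10665 central windows, 3.23% held TGACGTCA, 13.1% held TGANNTCA and 5.47% held TGAGTCA. TGACGTCA was more frequent in promoter windows (5.79%) than in distal windows (1.92%), unlike in the examples printed. The shares in promoter and distal windows were 9.9 and 14.7% for TGANNTCA and 2 and 7.23% for TGAGTCA. A window without a match says only that these letters are absent from its 100 bp. The Creb5 promoter window was 69% G or C, and the median was 64% over promoter peaks and 46% over distal peaks.

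Most target genes had few peaks. A target gene had 2.09 peaks on average (SD 2.32 over genes) with a median of 1, and 3209 of 5098 target genes (62.9%) had exactly 1. A further 761 had 2 peaks and 633 had 3 or 4. At the other end 495 genes, 2.26% of all coding genes and 9.71% of target genes, had 5 or more peaks and together held 3817 peaks, 35.8% of the list. Only 100 genes (0.456% of coding genes) had 10 or more, and these held 12.5% of all peaks. RNAPOL2 and H3K27ac gave 144 (0.656%) and 326 (1.49%) such genes. By the same assignment 11003 genes (50.2%) had an RNAPOL2 peak and 12423 (56.6%) had an H3K27ac peak. The number of genes with 5 or more peaks was 574 (2.62%) for RNAPOL2 and 1287 (5.87%) for H3K27ac beside 495 for V5. As a share of each list's own target genes, 9.71% had 5 or more V5 peaks, 5.22% RNAPOL2 peaks and 10.4% H3K27ac peaks.

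**Figure D1:**
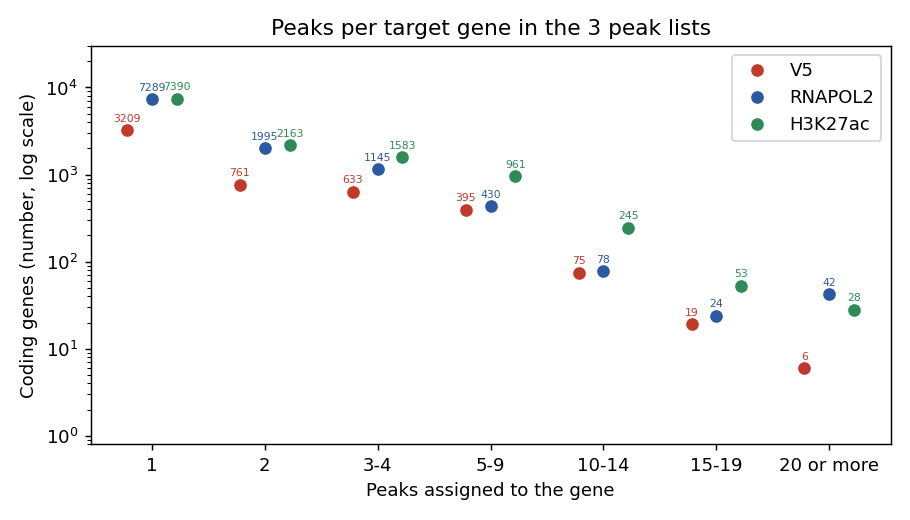
Number of coding genes (log scale) by the number of peaks assigned to them, for the V5, RNAPOL2 and H3K27ac lists, with the count printed at each point. The V5 points start lowest, at 3209 genes with 1 peak, and lie close to RNAPOL2 at 5 to 9 peaks, where 395 genes had V5 peaks and 430 had RNAPOL2 peaks.

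The V5 peaks lay farther from coding TSSs than the peaks of the other antibodies in these lists. The median distance to the assigned TSS was 14.5 kb (quartiles 0 and 60.2 kb), against 0 kb for RNAPOL2 and 2.11 kb for H3K27ac. A coding TSS lay under 2719 V5 peaks (25.5%), and 3595 (33.7%, interval 32.8 to 34.6) were promoter peaks, against 66.4% of RNAPOL2 and 52.2% of H3K27ac peaks. In genes, 3127 (14.3%) had an assigned V5 promoter peak and 2911 (13.3%) an assigned distal peak, whereas a promoter peak of RNAPOL2 was assigned to 10402 (47.4%) and of H3K27ac to 11415 (52%). An assigned distal peak was found at 13.7% of genes for RNAPOL2 and 22.1% for H3K27ac. Over all coding genes the V5 list thus did not have more distal targets than the others. Within each list's own target genes, promoter peaks alone were found at 42.9% for V5, 72.7% for RNAPOL2 and 60.9% for H3K27ac. The remaining target genes had a distal peak. Distances of 10 to 50 kb held 26.9% of V5 peaks, 50 to 100 kb held 11.9%, and 100 to 500 kb held 15.2%, a class that held 1.68% of RNAPOL2 and 5.59% of H3K27ac peaks. Beyond 500 kb lay 125 V5 peaks (1.17%).

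**Figure D2:**
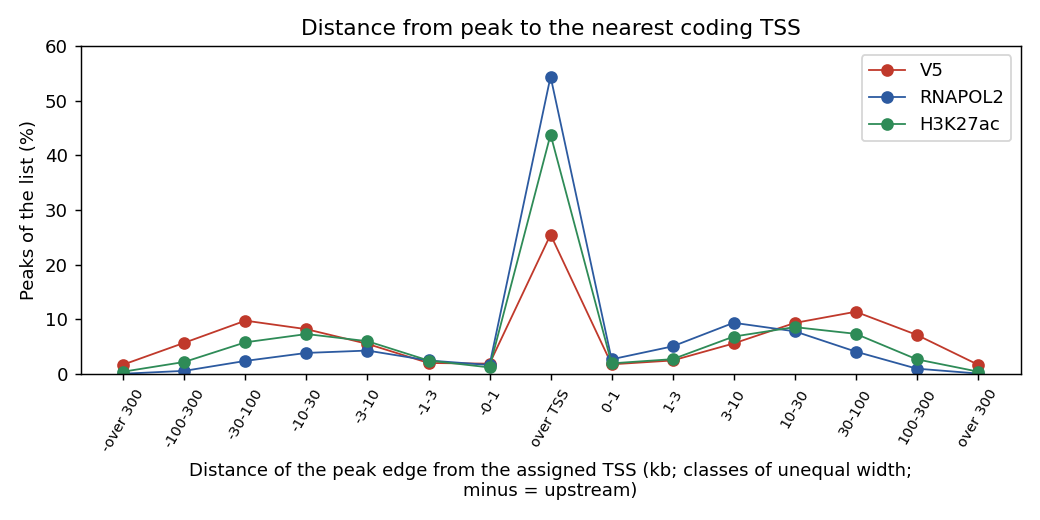
Share of each list's peaks (%) by signed distance from the assigned TSS in kb, in classes of unequal width, with negative classes upstream. V5 has the lowest point over the TSS, at 25.5% against 54.4% for RNAPOL2 and 43.8% for H3K27ac, and the highest points in the classes beyond 30 kb on both sides.

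Of the 7070 distal V5 peaks, 2704 (38.2%) had their middle inside the gene they were assigned to, 384 (5.43%) inside another coding gene and 3982 (56.3%) outside coding genes. Of all distal peaks 46.7% lay upstream and 53.3% downstream of the assigned TSS. Among those outside coding genes 57.2% lay upstream, a share that leaves out the peaks inside the assigned gene. The deposited score was not lower far from a TSS. Its median was 174 for peaks over a TSS, 185 within 3 kb, 241 at 10 to 50 kb and 277 at 100 to 500 kb. For 3001 of the 7070 distal peaks a second coding gene lay within 2 times the distance of the first, so their target name rests on the nearest-TSS rule.

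The promoters of neighbouring genes could share a peak. Of the 2719 peaks over a TSS, 358 (13.2%) lay over the TSSs of more than 1 coding gene, 344 of them over 2 genes and 14 over 3. In 271 of the 344 the genes pointed away from each other. The strongest of these covered Rnf166, a ubiquitin ligase gene, and Ctu2, which encodes a tRNA-thiolating enzyme, with a score of 6858 (rank 32 of the V5 list). Another with a score of 5717 (rank 58) covered Rpl9, a ribosomal protein gene, and Lias, which encodes lipoic acid synthase. Because each peak was counted for 1 gene, 472 genes with a V5 peak within 3 kb of an own TSS were not counted as target genes, and 3640 genes (16.6%) had such a peak when sharing was allowed.

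The gene with the most V5 peaks was Pde4d (chr13:108449948-109953461, plus strand), which encodes a cAMP-specific phosphodiesterase that ends the cAMP signal. It had 44 peaks, 5 at promoters and 39 distal, of which 36 lay inside Pde4d, 5 inside its neighbour Rab3c and 3 outside coding genes. Their scores ran from 35 to 4404 with a median of 357, and the strongest lay at chr13:109760621-109761730, an intragenic site 3.40 kb downstream of an internal TSS whose centre is printed above with TGACGTCA. The peaks spanned 1674 kb, and the sum of their scores, 39135, was the highest of any gene. Pde4d has many internal start sites, and it had 19 peaks when each gene was given only the 5′ end of its model.

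Reep3, which encodes a protein of the endoplasmic reticulum, followed with 32 peaks (3 at promoters, 29 distal), of which 24 lay outside coding genes. Its strongest peaks, with scores of 4744 and 4137, lay 194 and 281 kb downstream. Reep3 had 3 peaks with 1 TSS per gene and 14 within a limit of 100 kb. Cd83, a surface glycoprotein gene of dendritic cells and lymphocytes, had 27 peaks, none of them at the promoter and all of them downstream, 33.2 to 471 kb away and outside coding genes. The strongest, at chr13:44167451-44169910, scored 13847 (rank 5) and lay 382 kb from the Cd83 TSS. Only 2 of the 27 lay within 100 kb, and only Pde4d had a higher summed score than the 38601 of Cd83.

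Celf4, which encodes an RNA-binding regulator of splicing, had 23 peaks. Of these 1 was at the promoter with a score of 94, and an intragenic peak 37.0 kb downstream had the highest score of the whole list, 23478. A group of 7 of its peaks lay 762 to 1260 kb upstream, and 16 peaks were left within 100 kb. Creb5, itself a bZIP factor that binds cAMP response elements, had 21 peaks (4 promoter, 17 distal), 16 of them inside the gene. The strongest Creb5 peak scored 8718 (rank 19) and lay 9.10 kb upstream of an internal TSS, whereas its strongest promoter peak scored 301. Tshz2, a zinc-finger factor gene, had 20 peaks, 19 inside the gene, with a highest score of 1897. Creb5 had 12 and Tshz2 had 11 peaks with 1 TSS per gene.

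Further genes with many peaks are given by role. Among transcription regulators were Foxp1, a forkhead repressor, with 17 peaks, and Klf4, Tle3, Cited2 and Bach2 with 16 each. Klf4, a zinc-finger pluripotency factor, had 2 promoter and 14 distal peaks, and the strongest (score 8432, rank 21) lay 342 kb upstream of its TSS. Of the Klf4 peaks 4 lay within 100 kb. Cited2, which binds the coactivators CBP and p300, had 13 of its 16 peaks upstream, as far as 991 kb. In signalling and membrane biology were Pde10a, a phosphodiesterase of cAMP and cGMP, with 18 peaks, Slit3, a secreted guidance cue, with 16, Sulf2, which removes sulfate from heparan sulfate outside the cell, with 16, and Kcnma1, a calcium-activated potassium channel, with 15. Cytoskeletal and scaffold genes were Myo16 and Epb41l3 with 17 each and Dlgap1 with 16. Myo16, an unconventional myosin gene, had no promoter peak, its strongest distal peak scored 7886 (rank 23), and 9 of its peaks lay within 100 kb. Pde10a had 4 peaks with 1 TSS per gene.

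**Figure D3:**
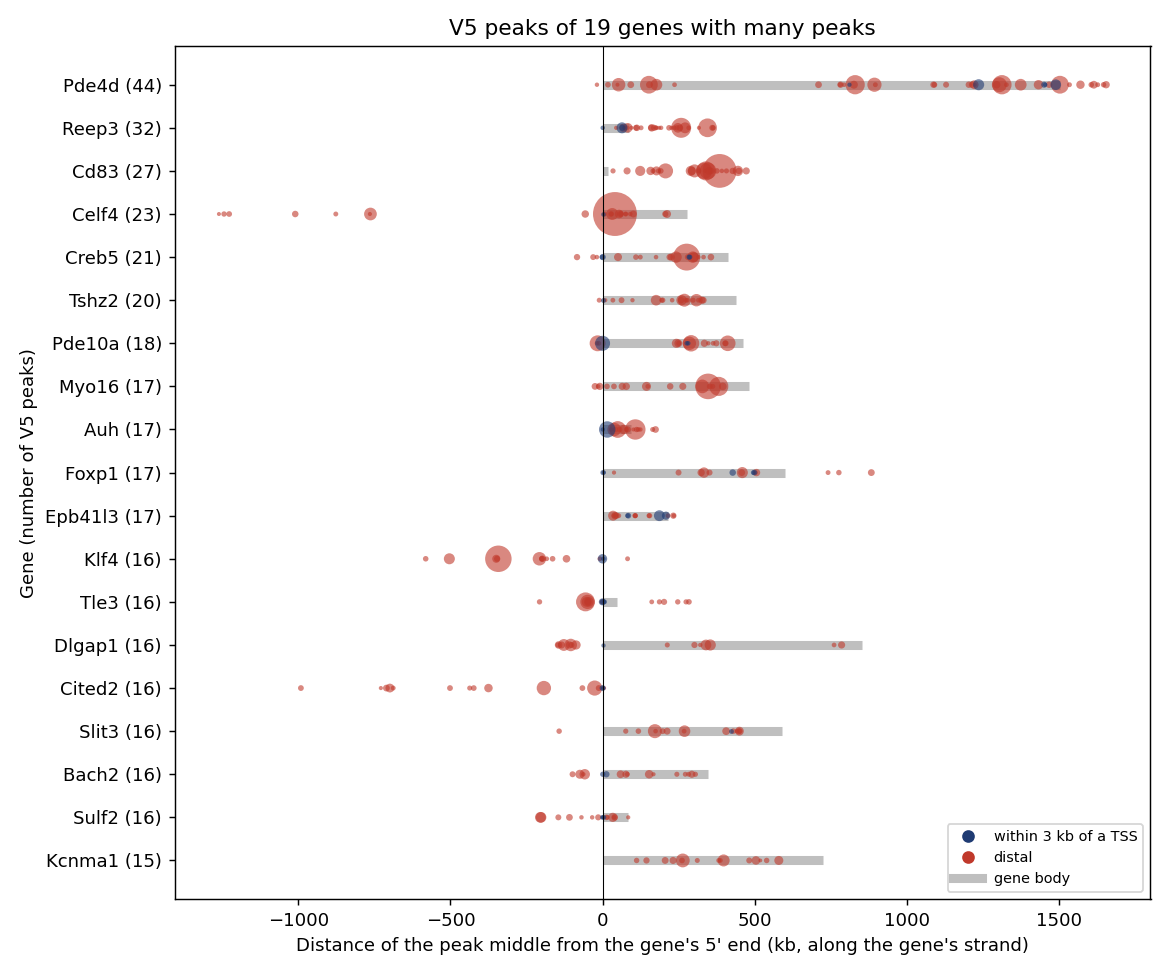
Position of every V5 peak of 19 of the 25 genes with 15 or more peaks, as distance in kb from the 5′ end of the gene along its strand, with larger discs for higher scores, blue for peaks within 3 kb of a TSS and red for distal peaks, and the gene body in grey. Pde4d peaks follow its body of 1504 kb, all 27 Cd83 peaks lie downstream of a short gene, and the largest disc, at Celf4, is the score of 23478.

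Auh and Nfil3 are neighbours on chromosome 13 and both had many peaks. Auh, a mitochondrial hydratase gene of leucine breakdown, had 17 peaks with a highest score of 4927, and Nfil3, a bZIP repressor of circadian and immune genes, had 12 (8 within 100 kb) with a highest score of 7193 at chr13:53091901-53095950, 111 kb upstream of its TSS. The strongest Nfil3 promoter peak scored 2767. When each peak was given to its 2 nearest genes within 500 kb, Nfil3 had 27 peaks and Auh 29, so 27 of the 29 peaks of this stretch had both genes as their nearest neighbours.

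Genes with many peaks also had more room. The territory of a gene, defined as the sequenced bases nearer to its TSSs than to those of any other coding gene, had a median of 37.2 kb for genes with no assigned V5 peak, 59.9 kb with 1 peak, 137 kb with 2, 287 kb with 5 to 9 and 536 kb with 10 or more. Dividing genes into 5 equal groups by territory, the share of target genes was 10.8% in the smallest (median 10.4 kb), then 13.2, 18.1 and 28.4%, and 45.8% in the largest (median 279 kb). Peaks per Mb of territory went the other way, from 11.2 in the smallest group to 3.31 in the largest. Against the overall density of 4.03 peaks per Mb, Pde4d had 25.8, Reep3 21.1, Cd83 48.5, Creb5 40.5 and Celf4 8.66. The overall density includes the genes without a peak, and the genes named here were picked for their many peaks. The median density was 16.7 per Mb for genes with 1 peak, 21.4 with 5 to 9 and 23.9 with 10 or more. The part that territory plays in the counts of peaks was not tested.

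Ranked by density instead, the first 10 genes with 5 or more peaks had territories of 26.0 to 84.9 kb. D330020A13Rik had 5 peaks at 193 per Mb and 4930455H04Rik had 5 at 139 per Mb, but all of these lay inside the larger genes B4galnt3 and Palmd. Pxk, which encodes a PX-domain kinase-like protein, had 7 peaks inside the gene with a highest score of 3883. Dlx4, a homeobox gene, had 8 peaks at 113 per Mb, 3 at the promoter and 5 distal, and the strongest (score 4843) lay 10.9 kb upstream. Apold1, an early response gene of blood vessels, had 5 peaks, and the strongest (score 6440, rank 38) lay 11.7 kb downstream of its TSS, where the peak over the TSS scored 844. The densest 10 also held Gpr153, Ankrd60, Plat, Wbp1l and Pdia4. The 8 Pdia4 peaks stood at steps of 4.26 to 5.35 kb in sequence that repeats, since a median of 95.1% of the 25-base words of a peak recurred in another peak of the gene, so how reads were divided among them is uncertain.

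Promoter and distal binding met at a minority of genes. Of the 5098 target genes, 2187 (42.9%) had promoter peaks only, 1971 (38.7%) distal peaks only and 940 (18.4%, interval 17.4 to 19.5) had both, which is 4.28% of all coding genes. A distal peak was present at 940 of 3127 genes with a promoter peak (30.1%, interval 28.5 to 31.7) and at 1971 of 18811 genes without (10.5%). The difference was seen at each size of territory. In the smallest group of genes the shares were 1.79% with and 0.634% without a promoter peak, in the middle group 12.6% and 6.02%, and in the largest 65.5% and 31.7%. The Wilson intervals overlapped in the smallest group and were separate in the other 4. They cover counting error only, and neighbouring peaks and genes are not independent. For RNAPOL2 the same shares over all genes were 23.1% with and 5.21% without, and for H3K27ac 33.7% and 9.58%.

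**Figure D4:**
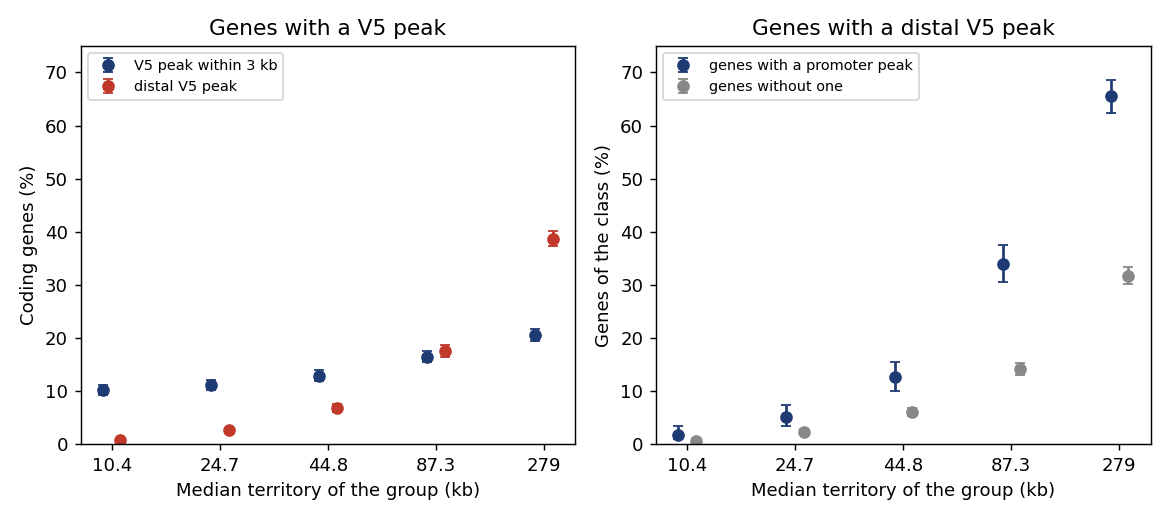
Left, share of coding genes (%) with a V5 promoter peak and with a distal V5 peak in 5 equal groups of genes by territory (median in kb). Right, share of genes with a distal V5 peak among genes with and without a promoter peak, with 95% Wilson intervals throughout. Promoter shares go from 10.2 to 20.5% and distal shares from 0.752 to 38.7%, and on the right the point for genes with a promoter peak is higher in each group.

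Promoter marks differed with the class of target. A RNAPOL2 peak lay within 3 kb of an own TSS in 92.8% of the genes with both kinds of V5 peak and in 96.2% of the genes with promoter peaks only, against 59.0% of genes with assigned distal peaks only, 45.1% of genes with no assigned V5 peak and 53.5% of all coding genes. The H3K27ac shares in the same order were 98.5, 98.8, 69.4, 49.8 and 58.6%. The classes follow assignment, and the genes with no assigned V5 peak include the 472 with a V5 peak within 3 kb of an own TSS. Within the 940 genes with both, the strongest distal peak scored higher than the strongest promoter peak in 676 (71.9%). Where a gene had exactly 1 of each, the distal peak was higher in 170 of 289 (58.8%, interval 53.1 to 64.3). Several promoter peaks were rarer, with 2 or more at 342 of 3127 genes.

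The counts by role that follow stand beside 23.2% target genes and 14.3% genes with an assigned promoter peak over all coding genes, whose median territory was 44.8 kb. Among genes for the CREB family and its coactivators, 4 of 8 were targets (interval 21.5 to 78.5%, which includes 23.2%). Crem is an ATF1 relative whose short ICER products repress cAMP-driven genes. It had 2 peaks, both over a TSS, with scores of 19716 (rank 2 of this list) and 5143. The study places a Crem promoter site at rank 3 of its larger set. The summed score of Crem, 24859, was exceeded only by Pde4d, Cd83 and Celf4. Creb1 had a promoter and a distal peak with a highest score of 3795. Crebbp, a histone acetyltransferase gene, and Atf1 each had 1 promoter peak, with scores of 318 and 153. The genes of the CRTC coactivators (Crtc1, Crtc2, Crtc3) and Ep300 had no assigned peak. Of 24 other ATF and bZIP genes 10 were targets, with 1 promoter and 3 distal peaks at Atf3, a stress-response factor, and 1 promoter peak at Atf4, which drives the amino acid response.

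The AP-1 genes encode the Fos and Jun proteins, and 6 of 7 were targets (interval 48.7 to 97.4%), each through a promoter peak, beside 23.2 and 14.3% of all coding genes. Fos had 8 peaks, of which 6 lay upstream, and its scores were highest at 31.8 and 36.0 kb upstream (1843 and 1618) against 1149 over the TSS. Fosl2 had 3 peaks, Fosb and Junb 2 promoter peaks each, and Jun and Jund 1 each. Fosl1 had no V5, RNAPOL2 or H3K27ac promoter peak. Of 18 immediate early genes that CREB is known to act on 12 were targets (interval 43.7 to 83.7%), 10 through a promoter peak. The NR4A orphan receptors Nr4a1, Nr4a2 and Nr4a3 had 4 peaks each with highest scores of 3194, 3018 and 4016. Sik1 and Sik3, salt-inducible kinases that hold the CRTC proteins out of the nucleus, had 6 and 7. Sst and Pck1, classical cAMP-responsive genes of endocrine cells and liver, had no peak of any of the 3 antibodies at the promoter. The same held for Egr4. Egr2, Egr3 and Ier5 had no V5 peak either, but each had both RNAPOL2 and H3K27ac promoter peaks.

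The cAMP pathway held 18 targets among 30 genes and 111 peaks. Most of these belonged to phosphodiesterases, which break cAMP down. Beside Pde4d and Pde10a, Pde4b had 11 peaks and Pde3a and Pde7b 3 each. Rapgef4, a cAMP-regulated exchange factor for Rap, had 12 peaks with a highest score of 4096, and Adcy2, an adenylyl cyclase, had 6 with a highest score of 3391. Genes of the protein kinase itself had fewer, with 2 at Prkar1a and 1 each at Prkaca, Prkacb and Prkar2a. Per Mb of territory these 4 genes had 49.4, 54.8, 8.54 and 11.7 peaks in that order, beside 25.8 at Pde4d and 48.4 at Pde10a. As a share 60% of the list were targets, and its median territory was 147 kb against 44.8 kb over all coding genes.

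Feedback genes of the MAP kinase pathway included 10 targets of 16, a share of 62.5% (interval 38.6 to 81.5) beside 23.2% of all coding genes. RNAPOL2 and H3K27ac each had a promoter peak at 15 of the 16, and the median territory of the list was 98.4 kb. Dusp6, a phosphatase of ERK, had 13 peaks (2 promoter, 11 distal) with a highest score of 3057, and Dusp10, a phosphatase of the stress kinases, had 11 assigned peaks, all distal, with a highest score of 3570, and a peak assigned to another gene lay within 3 kb of an own TSS. Spry2, an inhibitor of receptor signalling, had 8 and Dusp1 had 6. Among 20 circadian and PAR bZIP genes 12 were targets (interval 38.7 to 78.1%), with Nfil3 first, then Rora with 6 distal peaks and Hlf with 5. Among 26 KLF and SP factors 16 were targets (interval 42.5 to 77.6%), 15 through a promoter peak beside 14.3% of all coding genes, and the median territory of the list was 172 kb. Klf14 was the exception, with 11 distal peaks and no promoter peak of V5, RNAPOL2 or H3K27ac. Runx1 had 12 peaks (1 promoter, 11 distal) and Runx2 had 9 (2 and 7), with highest scores of 484 and 402, while Runx3 and Cbfb had none. Within 100 kb Runx1 and Runx2 had 5 peaks each, among the 2000 highest-scoring peaks both had 0, and with 1 TSS per gene Runx2 had 2.

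In the TGF-beta and BMP list 20 of 35 genes were targets, led by Inhba, which encodes an activin subunit, with 11 peaks, and Smad2, a signal transducer, with 10. The Notch list had 11 targets of 20, with 8 peaks at Maml3, a coactivator, and 7 at Hes1, a repressor that Notch turns on. The list of YAP, TAZ and TEAD genes also had 11 of 20, with 5 peaks each at Ccn2, a matricellular gene, and Vgll4, a TEAD cofactor. Stk4, a Hippo kinase, had 1 promoter peak with a score of 4384. Cell cycle genes had 15 targets of 36, and the most peaks were at Myc (13, highest score 1879, with 4 within 100 kb) and Ccnd2 (7, highest score 3892), which encodes cyclin D2. Trp53, Ccnd1 and Mdm2 had none. Receptor tyrosine kinases had 12 of 40, led by Fgfr2 with 9 peaks, Alk with 8 distal peaks and Igf1r with 7, and the Wnt and Frizzled list had 11 of 31, led by Lrp6, a Wnt coreceptor, with 5. Ewsr1 had no assigned V5 peak, but a V5 peak assigned to another gene lay within 3 kb of an Ewsr1 TSS. In all, 20 of the 22 lists lay above the 23.2% of all coding genes. However, 18 of the 22 had a median territory above the all-gene median of 44.8 kb. The intervals of 9 of the 22, among them the CREB, RUNX, receptor tyrosine kinase and Wnt lists, included 23.2%. RNAPOL2 and H3K27ac promoter peaks lay at 53.5 and 58.6% of all coding genes. They lay at 6 and 6 of 7 AP-1 genes, 18 and 20 of 20 circadian genes and 20 and 20 of 20 YAP genes. The Wnt list had them at 15 and 16 of 31 genes.

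The melanocyte list had 5 targets of 17 (29.4%, interval 13.3 to 53.1), near the 23.2% of all coding genes, and 1 gene of the 17 had a promoter peak, which 14.3% of all coding genes had. Mitf, the regulator of melanocyte identity, had 4 distal peaks, 3 of them inside the gene, with scores of 174, 208, 246 and 509. Dct, a pigment enzyme gene, had 1 promoter and 1 distal peak, Trpm1 had 4 distal peaks and Ednrb 2. Sox10, Tyr, Tyrp1, Mlana and Pmel had no V5 peak. At the promoter, Mitf, Pmel, Rab27a and Mc1r had both RNAPOL2 and H3K27ac peaks, whereas Sox10, Tyr, Tyrp1, Mlana and Dct had neither.

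Markers of other cell types served as a check of the tissue label, beside 23.2% V5 targets, 53.5% RNAPOL2 promoters and 58.6% H3K27ac promoters among all coding genes. Skeletal muscle, the host tissue, had 3 targets of 23 (interval 4.54 to 32.1%) and no promoter V5 peak, and 6 of the 23 had a RNAPOL2 and 4 an H3K27ac promoter peak, with both at Actn3, Mylpf and Mybpc2, RNAPOL2 alone at Myf6, Atp2a1 and Tnnt3, and H3K27ac alone at Ryr1. The defining genes Myod1, Myog, Ckm and Acta1 had no promoter peak of any antibody. Macrophage genes had 0 targets of 12 (interval 0 to 24.2%), although 11 had an H3K27ac promoter peak and 4 a RNAPOL2 promoter peak. Endothelial genes had 5 of 12 (interval 19.3 to 68.0%), all through distal peaks, such as Erg with 6 and Cldn5 with 3 (highest score 3391). Of these 12 genes, 6 had a RNAPOL2 and 8 an H3K27ac promoter peak. Fibroblast genes had 10 of 13 (interval 49.7 to 91.8%), with 8 peaks at Prrx1, a limb mesenchyme factor, and 5 at Fn1. Only 3 of the 13 had a V5 promoter peak, while 8 had a RNAPOL2 and 11 an H3K27ac promoter peak. The median territory of the fibroblast list was 254 kb, against 44.8 kb over all coding genes. The tumours are bulk tissue, so a peak present in some of the cells and a weak peak in all of them cannot be told apart.

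Of 15 genes that the study singles out, 10 were targets. Fam43a had 11 peaks, 6 of them within 100 kb, and a site 10.2 kb downstream scored 9883 (rank 12) while its promoter peak scored 76. Tfap2a, a neural crest factor, had 1 distal peak. Nono and Tceal8, both on chromosome X, had none, although each had RNAPOL2 and H3K27ac promoter peaks. The study chose these genes in part on the same tumours, so their count is not independent evidence. The fifth gene by summed score was Tmem182, with 23092 over 12 distal peaks, of which a site at chr1:40811501-40813040 held 14422 (rank 4).

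Gene families were read from symbols, as the letters before the first digit, for stems with at least 20 coding genes. The 106 stems covered 5905 genes, and their target shares went from 0 to 54.5%. The highest were the Stk kinases with 12 of 22 genes, then the Ube ubiquitin-conjugation genes with 21 of 42, the Pde phosphodiesterases with 13 of 26, and Bcl with 11 of 24. These were followed by Ap with 13 of 29, Myo with 11 of 25, Zbtb with 18 of 41 and Gtf, the general transcription factor genes, with 10 of 23. The Wilson intervals of these 8 overlapped each other, so their order is not resolved. Their H3K27ac target shares were also high, from 72% (Myo) to 90.5% (Ube), against 56.6% of all coding genes. Their median territories went from 37.2 kb (Zbtb) to 121 kb (Myo) and 166 kb (Pde), beside 44.8 kb over all coding genes. The 8 families reached their V5 shares in different ways. The Pde genes held 93 peaks, of which Pde4d, Pde10a and Pde4b had 44, 18 and 11, at 13.7 peaks per Mb. The Gtf genes held 12 peaks and all 10 targets had a promoter peak. The Myo genes held 62 peaks, with a promoter peak at 2 of the 11 targets and at least 5 peaks at 6 genes. The large stems lay near the 23.2% of all coding genes, with Slc transporters at 24.3% of 371 and Zfp zinc-finger genes at 22.3% of 394.

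At the lower end 8 stems, with 203 genes in all, had no target (Rhox, Scgb, Prl, Defa, Mup, Pcdhb, Ugt and Lce), families known from germ line, secretory epithelium, placenta, gut, liver, neurons or skin. The olfactory receptors (Olfr) had 8 targets of 1135 genes (0.705%), none through a promoter peak, and the vomeronasal receptors (Vmn) had 3 of 331. H3K27ac gave 8 of 1135 and 6 of 331 for the same families. Tas, the taste receptors, had 2 of 38, and both had several peaks (Tas2r134 with 7, Tas2r119 with 5). Over all stems, 18 had an interval wholly above the share of all coding genes and 19 wholly below.

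**Figure D5:**
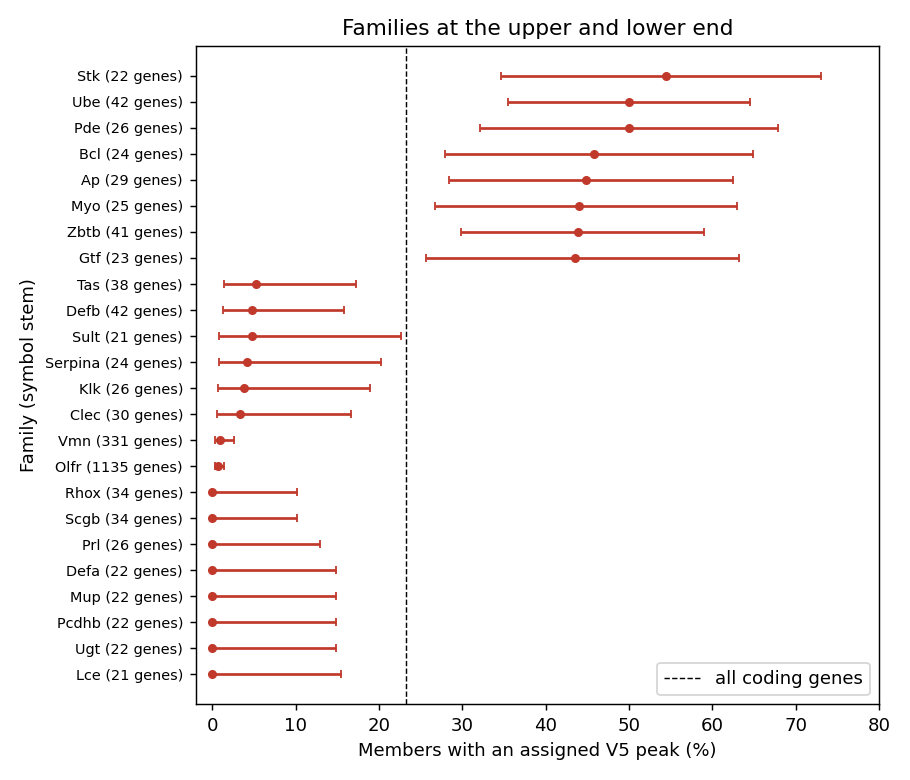
Share of the members with an assigned V5 peak (%) for the 8 symbol stems with the highest and the 16 with the lowest share, with 95% Wilson intervals, and a dashed line at the 23.2% of all coding genes. The 8 upper families lie at 43.5 to 54.5% with intervals that overlap each other, and the 8 lowest are at 0.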

How the data were processed

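Chromatin from mouse tumours was immunoprecipitated and sequenced by the authors for V5, RNAPOL2 and H3K27ac, with input as background. Following the submitters' processing notes and published methods, BWA 0.7.10-r789 (the MEM algorithm) placed reads on mm10, duplicates were removed, peaks were called with MACS2 2.2.6 against input (with the broad option for H3K27ac), and denylisted regions were dropped. The deposited lists give 1 whole-number score per peak, set by the authors on a scale that is not given in the sources used here, and no score was set beside one of another list. How the 4 labelled samples per antibody were combined into a peak list is not given either, although the methods describe averaged signal tracks. The methods also name more V5 and RNAPOL2 samples than the labels.

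TSSs were all transcript starts of the 21938 protein-coding genes of GENCODE vM21. Peaks were assigned by edge distance, with ties broken by the distance of the peak's middle and then by gene identifier. Families were symbol stems of at least 20 genes and 2 letters; the letter minimum and the omission of the serial names Gm, BC, Fam, Tmem, Ccdc and Smim were chosen after the values were seen. Named genes were the 20 with most peaks, the 10 densest with at least 5 peaks, the 10 with most distal peaks among those with a promoter peak, the 5 with the highest summed score, the genes the study singles out, up to 4 leading members per list, the extreme families and the 5 farthest peaks. Members without peaks, and further list members, were named after their values were seen, and some items are not reported here. The members, the 22 lists (436 symbols, 2 matched by synonym, 1 unmatched) and these rules were chosen with earlier results of these data known. Intervals are Wilson (95%) and cover counting error only. On simulated positions 100% of 3000 assignments and of 54 territories were correct. Python 3.11.15, numpy 2.4.6, pandas 2.3.3, scipy 1.17.1 and matplotlib 3.10.9 were used. Alternatives changed the TSS set, the measuring point, the promoter window, the distance limit, the number of genes per peak and the score limit.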

Additional observations from a re-analysis of the deposited data

How the results depend on the processing

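No paired analysis was possible because the lists give no values per sample, and no replicate was left out for the same reason. Which tumours entered each list, the depth per sample and the spread between tumours are unknown, so a gene without a peak is not shown to be unbound.

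The share of promoter peaks, 33.7%, changed with the rules. It was 32.8% by the middle of the peak, 30.8% with TSSs of protein-coding transcripts only, 26.7% with 1 TSS per gene, 40.3% within 100 kb, 20.1% with 2 genes per peak within 500 kb, and 29.2% or 37.5% with a window of 1 or 5 kb. The median distance of 14.5 kb became 21.0 kb with coding transcripts, 32.3 kb with 1 TSS per gene, 7.71 kb within 100 kb and 38.7 kb with 2 genes per peak. Giving each peak 2 genes made 8107 target genes, 1142 with 5 or more peaks, 1706 with promoter and distal peaks and 48.2% with more than 1 peak, where 37.1% had more than 1 in the report and 33.6% within 100 kb. The upper 50% of peaks by score left 3022 target genes (32.4% with more than 1 peak), 177 with 5 or more peaks and 314 with both kinds, a promoter share of 27.3% and a median distance of 20.4 kb. The 2000 highest-scoring peaks left 1405 target genes (22.6% with more than 1 peak), 35 and 77, with 30.4% and 17.8 kb. Fewer peaks leave fewer genes by construction.

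With 1 TSS per gene 4754 of the 5098 target genes (93.3%) and 409 of the 495 genes with 5 or more peaks (82.6%) were shared. Of 68 summary values under an alternative 40 stayed within their limits of change, among them the counts of families and of lists above the all-gene share. For the 19 named genes followed, 46 of 152 counts of peaks moved by more than 1.5 times.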

Other observations

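Target genes were few on chromosome X. There 50 of 948 coding genes (5.27%, Wilson interval 4.02 to 6.89) had an assigned V5 peak, against 5047 of 20807 autosomal genes (24.3%). The same shares were 28.7 and 51.5% for RNAPOL2 and 35.1 and 58.0% for H3K27ac. Among autosomes the share went from 14.3% on chromosome 7 to 34.3% on chromosome 18.

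Ezh2, which encodes the methyltransferase of Polycomb complex 2, and its neighbour Pdia4, a protein disulfide isomerase of the endoplasmic reticulum, had 8 V5 peaks each, and all 16 lay between them at chr6:47654581-47772510, outside coding genes. Steps between neighbouring peaks were 4.29 to 4.45 kb on the Ezh2 side and 4.26 to 5.35 kb on the Pdia4 side. Each of the 16 shared at least 86.2% of its 25-base words with another of them, and how reads were divided among the copies was not tested. All 16 were also touched by a RNAPOL2 and by an H3K27ac peak. Of the 495 genes with 5 or more peaks, 487 had no peak that shared 20% or more of its words with the gene's other peaks combined. Tex14, a germ cell gene, was the only further gene with 3 or more peaks that did (6 of 6). These genes were picked out after their values were seen.

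The peaks farthest from their assigned gene lay in gene deserts. A peak with a score of 267 was 2238 kb from Pcdh9, a protocadherin gene, and its second gene was 3176 kb away. Others lay 2083 kb from Cntnap5b, 1764 kb from Slc39a10, a zinc transporter gene, and 1651 and 1647 kb from Grik2, a glutamate receptor gene.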
